A study of Mus musculus with 6 samples.

Results

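Caveolae are flask-shaped pits of the plasma membrane, and 9 genes that build them were followed in lymphatic endothelial cells sorted from the meninges of old and young mice. The 9 genes were taken by name from the deposited count table: the caveolins Cav1 and Cav2, the cavins Cavin1, Cavin2 and Cavin3, and the genes of the caveolar neck Ehd2, Ehd4, Pacsin2 and Dnm2. All 9 had a row among the 22964 genes of the table and all 9 passed the filter on low counts, as did 15394 genes in all. The old group was 3 samples from mice aged 20 to 24 months, and the young group was 3 samples from mice aged 2 to 3 months. All mice were untreated wild-type C57BL/6J males, bought from a breeder or obtained from a public ageing colony, and the sources used here do not say which mice came from where. Cells were sorted as negative for CD45 and positive for CD31 and podoplanin, their RNA was amplified linearly, and each sample was sequenced as 1 library. Whether a sample was 1 animal or a pool is not stated, so every p-value below is about the variation among these libraries, part of which may be technical.

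Caveolae are abundant in endothelial cells, where they carry molecules across the cell, hold signalling proteins such as the endothelial nitric oxide synthase, and flatten to release membrane when the cell is stretched. Caveolins are hairpin proteins in the inner leaflet of the membrane that bind cholesterol and form the bulb, cavins form a coat around it from the cytosol, and ATPases and membrane-bending proteins gather at the neck. Caveolin-1 and cavin-1 are both needed for caveolae to form outside muscle, and lymphatic as well as blood endothelium carries them.

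The 6 libraries held 14285794 to 21043945 estimated counts, of which the 9 genes took 0.1791 to 0.2352%. Levels below are CPM, the counts scaled to a common library size after TMM scaling, which corrects for differences in composition between libraries. The sort markers were present throughout. Pecam1, which encodes CD31, had 733, 531 and 568 CPM in the old samples and 404, 320 and 397 CPM in the young samples. Prox1, the lymphatic fate factor, ran from 932 to 1410 CPM in the old samples and from 877 to 945 CPM in the young samples, and Lyve1, a hyaluronan receptor of lymphatic endothelium, from 1417 to 1592 CPM in the old samples and from 1016 to 1338 CPM in the young samples. Pdpn, which encodes podoplanin, had 57.8, 142 and 81.6 CPM in the old samples and 61.9, 75.1 and 79.7 CPM in the young samples. Ptprc, which encodes CD45, ran from 30.7 to 62.9 CPM in the old samples and from 0.993 to 72.7 CPM in the young samples. Libraries also held RNA of other cells, some of which make caveolae themselves. The 9 fibroblast markers summed to 2608 to 3074 CPM in the old samples and 5369 to 8371 CPM in the young samples. The 10 pericyte and smooth muscle markers summed to 967 to 2084 CPM in the old samples, highest in old sample 1, and to 642 to 952 CPM in the young samples. The 10 macrophage markers summed to 794 to 1734 CPM in the old samples and to 642 to 3918 CPM in the young samples. Mrc1, which lymphatic endothelium also makes, gave 679 CPM of that sum in old sample 1 and 401 CPM in young sample 1. Without Mrc1, left out after seeing the data, the other 9 macrophage markers summed to 115, 1320 and 317 CPM in the old samples and to 241, 2044 and 3556 CPM in the young samples, lowest in old sample 1. Adipocytes, a cell type rich in caveolae, left little trace: the 5 adipocyte markers analysed here summed to 14.7 to 32.9 CPM in the old samples and 15.03 to 29.6 CPM in the young samples. In such bulk samples a lower number of cells of a type and less RNA per cell cannot be told apart, and the part that these cells take in the values below was not tested.

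No caveola gene passed the test between old and young cells over all genes. Ehd2, higher in each old sample, had the smallest p of the 9 and ranked 130 by edgeR p among all tested genes. EdgeR's quasi-likelihood test called 0 of the 9 genes at an adjusted p under 0.05, and it called 0% of all 15394 genes. DESeq2 called 0.882% of the 14747 genes to which it gave an adjusted p, and limma-voom called 0.0195% of all 15394 genes. Neither called a caveola gene. In edgeR the log2 fold change of old over young was positive for 8 of the 9 genes, Dnm2 being the exception, where 51% of all genes and 58.3% of genes with a mean of at least 50 CPM were positive. It was positive for 6 of 9 without old sample 3 and for 6 of 9 without young sample 1, where Ehd4 and Pacsin2 turned negative. The median over the 9 genes was 0.36, with an interquartile range of 0.14 to 0.44, and the median over all genes was 0.02, with an interquartile range of −0.62 to 0.60. The 8 pan-endothelial markers, such as Pecam1 and Cdh5, had a median of 0.62 and the 8 lymphatic markers one of 0.60. Leaving out the 2 mitochondrial ribosomal RNA genes, which took 16.04 to 21.89% of the counts in old samples and 15.65 to 16.52% in young samples, gave the 9 genes a median of 0.35. Scaling by library size alone, without TMM, gave them a median of 0.20 and all genes one of −0.12.

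**Figure D1:**
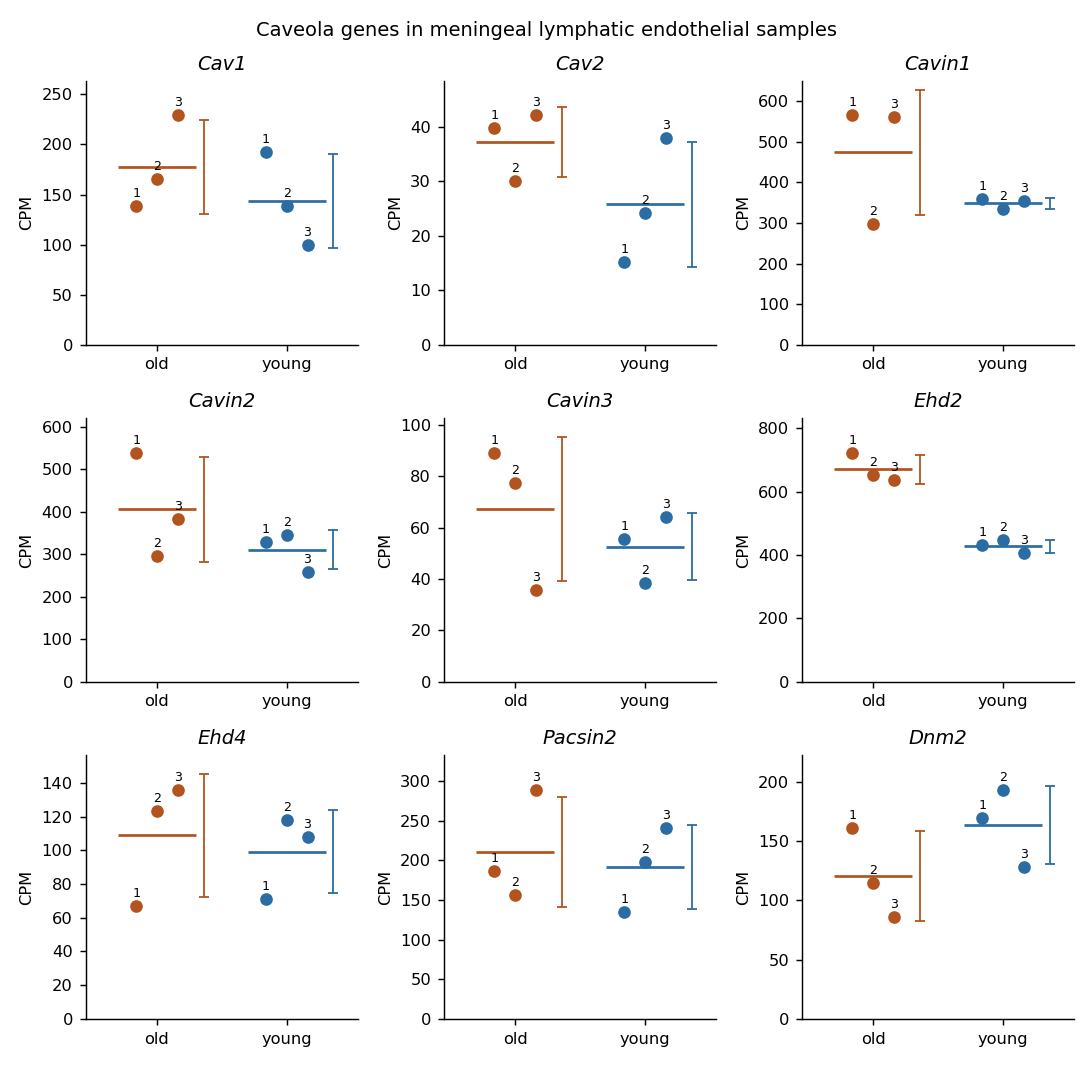
Levels of the 9 caveola genes in CPM, with each numbered point 1 sample, the horizontal line the group mean and the bar beside it ± 1 SD (n = 3 old and 3 young). The old samples of Ehd2 lie at 637 to 724 CPM, all above the young samples at 406 to 447 CPM, and in the other 8 panels the groups overlap.

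Cav1 (ENSMUSG00000007655; chromosome 6, 17306335 to 17341452, plus strand, GRCm38) and Cav2 (ENSMUSG00000000058; chromosome 6, 17281185 to 17289115, plus strand) lie in tandem, Cav2 first, with 17219 bases between them. Cav1 encodes caveolin-1, the scaffold of the bulb. It had 138, 166 and 229 CPM in old samples 1, 2 and 3, against 193, 139 and 99.6 CPM in young samples 1, 2 and 3. The groups overlapped, since young sample 1 was higher than old samples 1 and 2. The means were 178 ± 46.6 CPM in old and 144 ± 46.7 CPM in young cells (SD, n = 3 each), a log2 fold change of 0.31 with a 95% interval of −0.48 to 1.09 and an edgeR adjusted p = 0.952. In linear terms that interval ran from 0.719-fold to 2.13-fold. Cav2 encodes caveolin-2, which assembles with caveolin-1 and depends on it to reach the cell surface. Its levels were 39.7, 30.0 and 42.1 CPM in the old samples, against 15.2, 24.1 and 38.0 CPM in the young samples. Young sample 3 was above old sample 2, so these groups overlapped too, and the log2 fold change was 0.53 with an interval of −0.81 to 1.87 and an edgeR adjusted p = 0.952.

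Cavin1 and Cavin2 were among the more abundant of the 9 genes, and Cavin3 was among the lower ones. Cavin1 (ENSMUSG00000004044; chromosome 11, 100956733 to 100970887, minus strand), which encodes the coat protein needed in all tissues and was formerly named Ptrf, had 565, 297 and 561 CPM in the old samples, against 360, 334 and 353 CPM in the young samples. Old samples 1 and 3 were above every young sample, and old sample 2 was below all of them. The spread was 32.4% of the mean in old and 3.89% in young cells, and the log2 fold change was 0.44 (95% interval −0.18 to 1.07, edgeR adjusted p = 0.911). Cavin2 (ENSMUSG00000045954; chromosome 1, 51289126 to 51302960, plus strand), a cavin that shapes endothelial caveolae in some vascular beds of the mouse, was also lowest of the old samples in sample 2, with 540, 295 and 383 CPM in the old samples, against 328, 346 and 258 CPM in the young samples. Its log2 fold change was 0.38 (95% interval −0.24 to 1.01, edgeR adjusted p = 0.929). It was 0.12 without old sample 1, and Cavin1 had 0.30 without that sample. Without old sample 2, Cavin1 had 0.69 and an unadjusted p = 0.0135, with an edgeR adjusted p = 0.601. Old sample 1 had the highest sum of all libraries for pericyte and smooth muscle markers, at 2084 CPM. It also had the highest for pan-endothelial markers, at 3231 CPM, and for lymphatic markers, at 20310 CPM. Their part in these shifts was not tested.

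Cavin3 (ENSMUSG00000037060; chromosome 7, 105480083 to 105482300, minus strand), which encodes the cavin formerly named Prkcdbp, was lower, with 89.3, 77.2 and 35.7 CPM in the old samples, against 55.4, 38.5 and 64.1 CPM in the young samples. Old sample 3 was the lowest of all 6. The log2 fold change was 0.36 (95% interval −0.74 to 1.45, edgeR adjusted p = 0.965), and it was 0.10 without old sample 1. The estimates for Cavin3 are uncertain, because 374 bases of its exons overlap Gm45667 on the opposite strand and 21.1% of its distinct stretches of 31 bases also occur in transcripts of that gene, while the strand setting is not given. Gm45667 had no row among the 22964 genes. Of the 31-base stretches of Cav1, Cav2, Cavin1, Cavin2 and Ehd4, 0% occur in transcripts of another gene, and the shares were 0.625% for Ehd2, 0.477% for Pacsin2 and 3.48% for Dnm2.

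Ehd2 (ENSMUSG00000074364; chromosome 7, 15946958 to 15967567, minus strand) was the 1 gene of the 9 whose groups did not overlap. It encodes an ATPase that forms rings at the caveolar neck and holds caveolae at the cell surface. The levels were 724, 654 and 637 CPM in the old samples, against 432, 447 and 406 CPM in the young samples, with means of 671 ± 45.95 CPM in old and 428 ± 20.4 CPM in young cells (SD, n = 3 each). Every old sample was higher than every young sample, and the SD was 6.84% of the mean in old cells, the lowest of the 9 genes, and 4.77% in young cells, where Cavin1 alone was lower. The log2 fold change was 0.65 (SE 0.18, 95% interval 0.23 to 1.07), or 1.57-fold. EdgeR gave an unadjusted p = 0.00655 and an adjusted p = 0.752 over all genes, so Ehd2 did not pass. Its adjusted p was 0.282 in DESeq2 and 0.741 in limma-voom.

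This count of 1 is read against all genes. Of all 15394 genes, 5.56% had every old sample above every young one and 6.44% every old sample below, and among genes with a mean of at least 50 CPM the share above was 9.79%. At an unadjusted edgeR p under 0.05, 2.86% of all genes were higher and 2.7% lower in old cells, and 6.43% of the genes with at least 50 CPM were higher. Pecam1, the gene for the CD31 protein used in the sort, also separated, at 611 ± 107 CPM in old and 374 ± 46.5 CPM in young cells (SD, n = 3 each), a log2 fold change of 0.71 with an interval of 0.21 to 1.20.

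Ehd4 (ENSMUSG00000027293; chromosome 2, 120089175 to 120154606, minus strand), a relative of Ehd2 whose protein also works on endosomes, had 67.0, 123 and 136 CPM in the old samples, against 71.4, 118 and 108 CPM in the young samples. Sample 1 was the low one at both ages. The log2 fold change was 0.13 (95% interval −0.75 to 1.01, edgeR adjusted p = 0.984). Pacsin2 (ENSMUSG00000016664; chromosome 15, 83375607 to 83464606, minus strand), which encodes a protein that bends membrane into tubes, had 187, 156 and 289 CPM in the old samples, against 135, 198 and 241 CPM in the young samples. The lowest and the next lowest level came from different ages, and the log2 fold change was 0.14 (95% interval −0.63 to 0.90, edgeR adjusted p = 0.978).

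Dnm2 (ENSMUSG00000033335; chromosome 9, 21424908 to 21507759, plus strand), the dynamin that cuts the necks of caveolae and of clathrin-coated pits, was the gene with a negative value. It had 161, 115 and 85.9 CPM in the old samples, against 169, 193 and 128 CPM in the young samples. Old sample 1 lay inside the young range and old samples 2 and 3 lay below it. The log2 fold change was −0.44 (95% interval −1.20 to 0.32, edgeR adjusted p = 0.932), and without old sample 1 it was −0.71 with an edgeR adjusted p = 0.750. Dnm2 overlaps the exons of Tmed1, on the opposite strand, by 207 bases. Tmed1 had 0 counts in every old sample and 64 to 130 counts in the young samples, while Dnm2 had 1580 to 2148 counts in the old and 2721 to 3803 counts in the young samples.

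**Figure D2:**
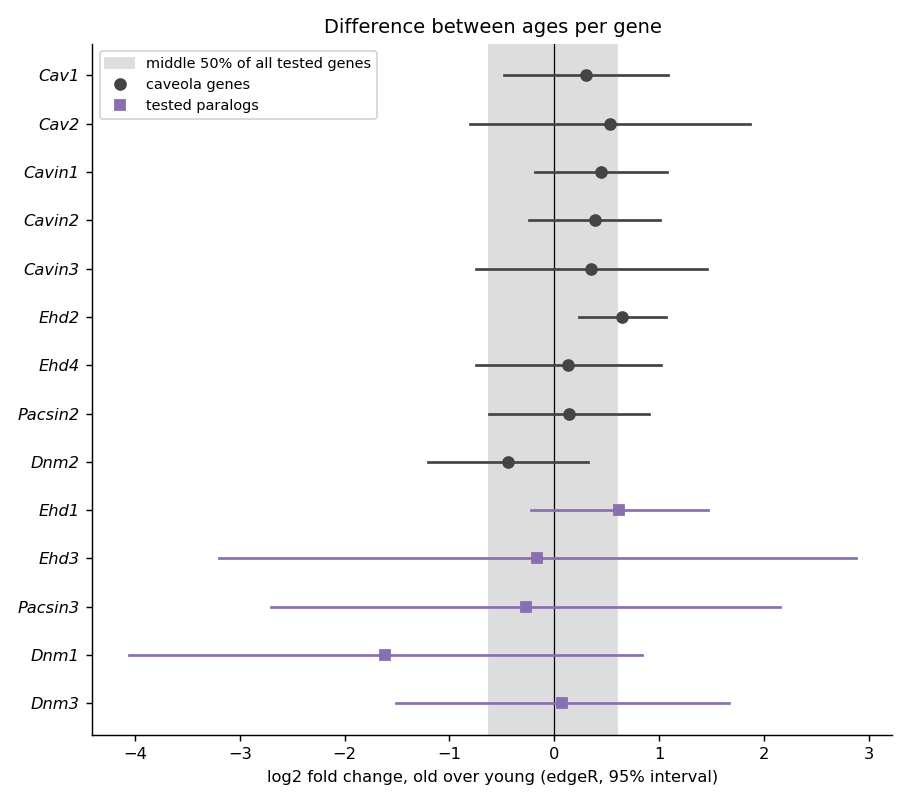
Log2 fold change of old over young for the 9 caveola genes (circles) and their 5 tested paralogs (squares), with 95% intervals from the edgeR fit, over a grey band from −0.62 to 0.60 that holds the middle 50% of all tested genes. Ehd2 at 0.65 is the gene whose interval does not reach 0, and the intervals of Ehd3, Pacsin3 and Dnm1 are the widest.

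For a comparison between genes, CPM was divided by the merged exon length of each gene in kilobases. This assumes that reads cover the exons evenly, which was not tested for this amplified RNA. Per length, Cavin2, Cavin1 and Ehd2 stood highest in both groups. In old cells they averaged 132.8, 132.3 and 131.2 CPM per kb, and in young cells 101.7, 97.2 and 83.6 CPM per kb. Their samples overlapped in old cells. In young cells the 3 Ehd2 samples, at 79.3 to 87.2 CPM per kb, lay below the 3 Cavin1 samples, at 92.99 to 100.3 CPM per kb. Cav1 followed with 51.6 CPM per kb in old and 41.7 CPM per kb in young cells, and its highest sample, at 66.5 CPM per kb, was below the lowest sample of any of those 3 genes at the same age.

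The genes next in order overlapped with their neighbours, Cav1 with Pacsin2 included. Pacsin2 had 42.9 CPM per kb in old and 38.9 in young cells, Cavin3 had 40.5 in old and 31.7 in young cells, Ehd4 had 27.2 in old and 24.8 in young cells, and Dnm2 had 22.6 in old and 30.7 in young cells. Cav2 was lowest, with 11.2 CPM per kb in old and 7.73 CPM per kb in young cells, and its samples lay below those of every other caveola gene of the same age. With the longest coding transcript as the length, Cav2 was again lowest and Cavin1, Cavin2 and Ehd2 were again the top 3.

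Ratios of counts within a library do not depend on scaling between libraries. Cav2 counts were 0.288, 0.181 and 0.184 of Cav1 counts in the old samples, against 0.0789, 0.174 and 0.382 in the young samples. The widest spread was thus among young samples, where sample 1 had the lowest ratio of all 6 libraries and sample 3 the highest. Cavin1 had 4.09, 1.79 and 2.45 counts per Cav1 count in the old samples, against 1.87, 2.41 and 3.54 in the young samples. Ehd2 had 5.24, 3.95 and 2.78 counts per Cav1 count in the old samples, against 2.24, 3.22 and 4.08 in the young samples.

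Cavin2 and Cavin1 kept the steadiest ratio, at 0.955, 0.993 and 0.682 in the old samples, against 0.912, 1.04 and 0.732 in the young samples. Cav1 had 0.188, 0.312 and 0.403 counts per Pecam1 count in the old samples, against 0.477, 0.432 and 0.251 in the young samples. The groups overlapped in each of the 5 ratios. Two-sided exact permutation tests on the log2 ratios gave p = 0.7 for Cav2 to Cav1, p = 0.9 for Cavin1 to Cav1, p = 0.9 for Cavin2 to Cavin1, p = 0.5 for Ehd2 to Cav1 and p = 0.5 for Cav1 to Pecam1. Each exact p was 0.9 after Benjamini-Hochberg adjustment over the 5 ratios, and 3 samples against 3 cannot give a p below 0.1.

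**Figure D3:**
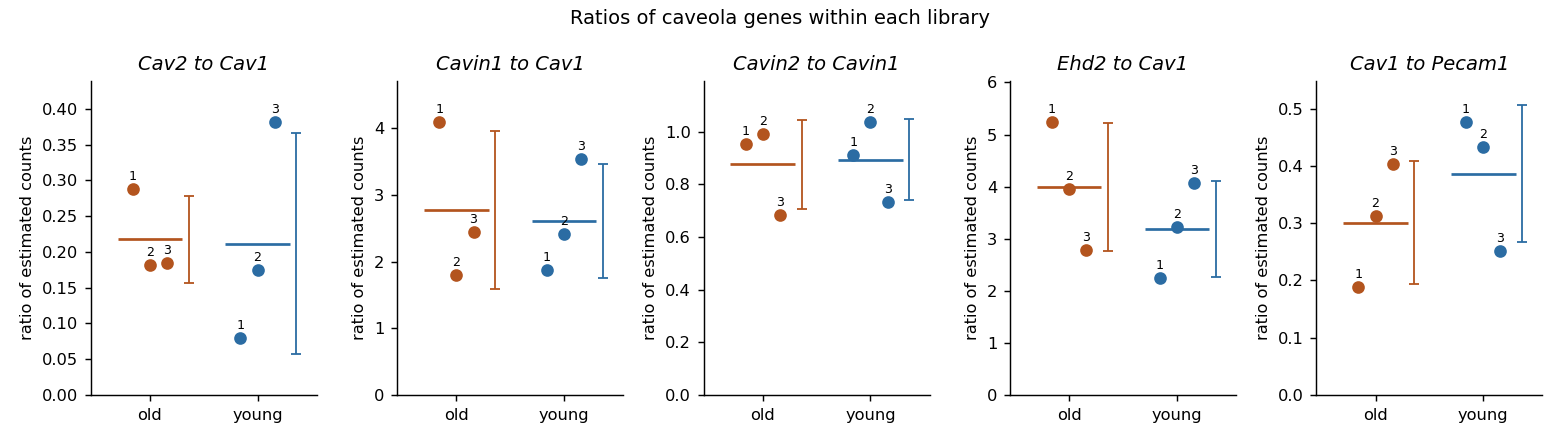
Ratio of estimated counts of 2 genes within each library, with each numbered point 1 sample, the line the group mean and the bar ± 1 SD (n = 3 old and 3 young). The groups overlap in each panel, and the ratio of Cav2 to Cav1 runs from 0.0789 to 0.382 among the young samples.

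Among themselves the 9 genes did not share a single profile over the 6 samples. Likeness was measured as the root mean square difference of log2 CPM after centring each gene on its own mean, so that 0 is an identical profile. Cavin1 and Cavin2 were the nearest pair at 0.23, followed by Cavin2 and Ehd2 at 0.27 and by Cav2 and Pacsin2 at 0.33. The farthest pair was Cav2 and Dnm2 at 0.81, and Cav1 and its tandem neighbour Cav2 stood at 0.70. Among 3693 named genes of at least 50 mean CPM, the profile of Cav1 was most like those of Ccnl1 at 0.09, Trpm7 at 0.09, Pde8a at 0.11, Galnt1 at 0.13 and Pcdhgc4 at 0.13, the last of which shares exons with its gene cluster and is uncertain. These genes share with Cav1 a young sample 1 above young sample 3. Ehd2, the caveola gene nearest to Cav1, was at 0.40 and would have ranked 540 in that order. A gene that varies little can also come near on this measure, so the place of Ehd2 does not by itself show a shared pattern.

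To show what the genes share in sequence, the promoters of Cav1 and Cavin1, which make the bulb and the coat, of Cav2, the tandem neighbour of Cav1, and of Ehd2, the gene whose groups separated, are given from RefSeq's GRCm38.p6 annotation. Each is 300 bases long, from 250 bases before the annotated start, and reads 5′ to 3′ on the strand of the gene. Capitals mark matches to the motifs searched on both strands: the TATA box TATAAA, the CCAAT box CCAAT, the GC box GGGCGG, the E-box CACGTG, the forkhead core TGTTTAC and the CACCC core of Krüppel-like factors.
Cav1 promoter, chr6:17306085-17306384, plus strand: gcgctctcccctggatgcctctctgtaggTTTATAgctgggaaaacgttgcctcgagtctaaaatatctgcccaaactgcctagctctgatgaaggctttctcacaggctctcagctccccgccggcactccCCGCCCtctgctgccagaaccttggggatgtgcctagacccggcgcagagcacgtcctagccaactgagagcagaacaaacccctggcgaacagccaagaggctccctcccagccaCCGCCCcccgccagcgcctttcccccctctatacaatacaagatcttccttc
Cav2 promoter, chr6:17280935-17281234, plus strand: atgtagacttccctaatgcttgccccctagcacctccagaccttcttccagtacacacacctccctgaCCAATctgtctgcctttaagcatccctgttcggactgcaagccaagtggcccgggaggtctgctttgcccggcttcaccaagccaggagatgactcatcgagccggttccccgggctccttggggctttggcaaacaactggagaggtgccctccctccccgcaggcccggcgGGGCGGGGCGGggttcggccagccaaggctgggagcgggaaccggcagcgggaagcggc
Cavin1 promoter, chr11:100970568-100970867, minus strand: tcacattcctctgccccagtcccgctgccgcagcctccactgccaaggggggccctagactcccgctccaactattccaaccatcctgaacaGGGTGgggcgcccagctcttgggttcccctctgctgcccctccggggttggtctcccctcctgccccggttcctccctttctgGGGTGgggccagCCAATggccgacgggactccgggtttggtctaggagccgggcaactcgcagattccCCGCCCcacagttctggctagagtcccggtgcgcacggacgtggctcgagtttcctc
Ehd2 promoter, chr7:15967486-15967785, minus strand: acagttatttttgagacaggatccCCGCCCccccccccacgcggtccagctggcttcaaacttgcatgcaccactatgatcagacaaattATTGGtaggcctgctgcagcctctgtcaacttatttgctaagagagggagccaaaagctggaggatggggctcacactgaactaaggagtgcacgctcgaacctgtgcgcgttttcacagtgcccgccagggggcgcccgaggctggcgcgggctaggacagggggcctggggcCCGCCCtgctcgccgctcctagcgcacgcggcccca

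Of the 9 genes, 8 had 1 or more promoters in that table, in 12 windows. These windows are not all distinct: the 2 Cavin1 windows overlap almost fully and hold the same matches. Another 3 belong to Pacsin2 alone. A GC box, with 2 matches in each of the Cav1, Cav2 and Ehd2 windows above, was found in 8 of the 12 windows and for 7 of the 8 genes, Cavin2 being the exception, where 35.6% of 32817 promoter windows of the same length hold one. A CCAAT box was found in 9 of 12 windows and for 7 genes, Cav1 being the exception, against 37.4% of all windows. The CACCC core was in 7 windows against 57.5% of all. A TATA box was in 1 window, that of Cav1, at 221 bases before the annotated start, against 13.6% of all, and the E-box and the forkhead core were in 0 windows, against 7.15% and 3.65% of all. GC content was 59.3% for that Cav1 window, 64.3% for Cav2, 66.7% for Cavin1 and 62.0% for Ehd2, beside a median of 52.7% over all windows. The Cavin2 window, at 43.3%, and a Pacsin2 window, at 48.0%, lay below that median. The windows not printed here otherwise ran from 53.3% to 67.0%. A match describes the letters of a window and does not show that a factor binds there.

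Paralogs of the 9 genes were mostly low. Ehd1, an endosomal relative of Ehd2, was the most abundant, with 187, 105 and 118 CPM in the old samples, against 117, 65.0 and 84.7 CPM in the young samples, a log2 fold change of 0.62 (95% interval −0.22 to 1.47, edgeR adjusted p = 0.897). Ehd3 had 0.0748, 29.2 and 35.6 CPM in the old samples, against 19.1, 36.2 and 17.4 CPM in the young samples, so that 1 old library was nearly without it. Dnm3 ran from 17.1 to 96.9 CPM in the old and from 30.4 to 87.4 CPM in the young samples, Dnm1, the dynamin of neurons, from 1.32 to 12.9 CPM in the old and from 9.14 to 22.8 CPM in the young samples, and Pacsin3 from 3.14 to 18.3 CPM in the old and from 5.96 to 17.2 CPM in the young samples. Of these 5 tested paralogs, 0 passed, 2 were positive and 3 negative, with a median of −0.16, and Dnm3, at 0.08, turned negative with library size alone as the scaling. Cavin4, the muscle cavin, had 71 counts in old sample 2, 1 count in young sample 1 and 0 in the other samples, and Pacsin1, the neuronal form, had 4 counts in all. Neither was tested.

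Proteins that sit in or next to endothelial caveolae were listed as 19 genes, of which 18 had a row and 17 were tested, and 0 passed the adjusted test. Of the 17, 14 had a positive and 3 a negative log2 fold change, with a median of 0.43 and an interquartile range of 0.17 to 0.78. The old samples were above all young samples for 6 of the 17 and below them for 1, beside 5.56% of all genes above, 9.79% of those with at least 50 CPM above and 6.44% of all genes below. At an unadjusted edgeR p under 0.05, 5 were higher and 1 lower in old cells, beside 2.86% of all genes higher and 2.7% lower. Among the 8 lymphatic markers, 6 had every old sample above every young one and 5 were higher at that threshold. Among the 8 pan-endothelial markers these counts were 5 and 3, and in both lists 0 markers were lower by either measure. The 4 with the smallest p were Plvap, Kdr, Aqp1 and Nos3.

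Plvap, which forms the diaphragms that span the neck of endothelial caveolae, had 297, 268 and 343 CPM in the old samples, against 184, 144 and 202 CPM in the young samples, a log2 fold change of 0.78 (SE 0.25, edgeR unadjusted p = 0.0132, adjusted p = 0.822). Kdr, the VEGF receptor VEGFR2, had 676, 500.3 and 509 CPM in the old samples, against 357, 347 and 382 CPM in the young samples (log2 fold change 0.63, SE 0.21, edgeR adjusted p = 0.850). Aqp1, a water channel found in endothelial caveolae, had 1277, 1042 and 974 CPM in the old samples, against 839, 614 and 763 CPM in the young samples (log2 fold change 0.57, SE 0.20, edgeR adjusted p = 0.858).

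Nos3, the nitric oxide synthase that caveolin-1 binds and inhibits, was low in both groups, with 427, 283 and 318 counts or 31.9, 20.6 and 15.5 CPM in the old samples, against 31, 109 and 141 counts or 1.92, 5.54 and 6.35 CPM in the young samples. Its log2 fold change was 2.30 (SE 0.88, edgeR adjusted p = 0.888). For these 4 genes every old sample was above every young one, as for Pecam1, and the test over all genes called none of them. The 10 blood endothelial markers, a list that also holds Plvap, summed to 1201 to 1743 CPM in the old samples and to 621 to 843 CPM in the young samples, and their part in these differences was not tested.

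**Figure D4:**
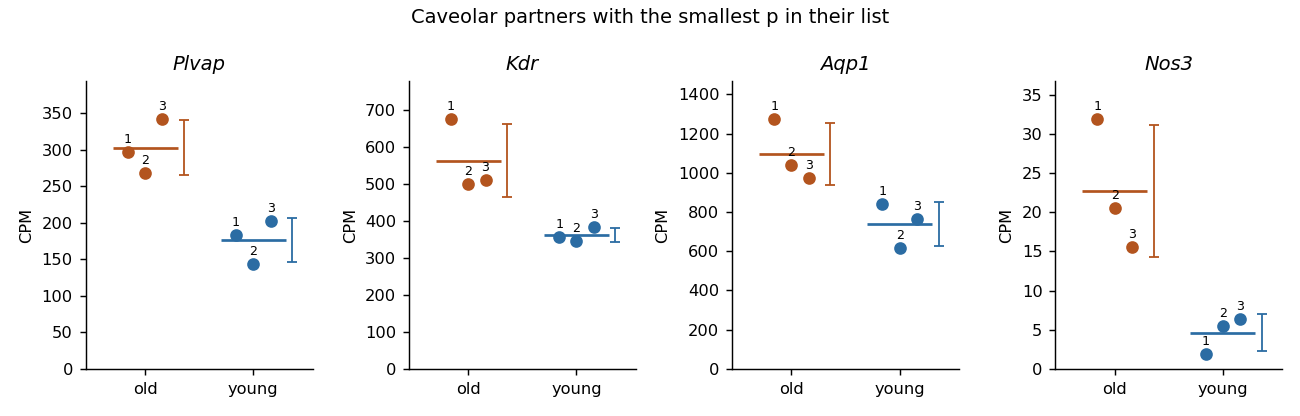
Levels in CPM of the 4 caveolar partners with the smallest p in their list, with each numbered point 1 sample, the line the group mean and the bar ± 1 SD (n = 3 old and 3 young). In each panel the old samples lie above the young samples, for Nos3 at 15.5 to 31.9 CPM against 1.92 to 6.35 CPM.

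Genes that anchor caveolin or govern its turnover numbered 9, of which 8 were tested, 6 positive and 2 negative, with a median of 0.32, and 0 passed. Ror1, a receptor that binds caveolin-1 and cavin-1 in human cancer cells, had 41.8, 49.5 and 7.37 CPM in the old samples, against 4.72 to 6.80 CPM in the young samples, so that old sample 3 was only just above the young samples. Vcp, which takes part in the degradation of caveolin-1, had 161 to 211 CPM in the old and 146 to 174 CPM in the young samples, and Src, the kinase that phosphorylates caveolin-1, 4.26 to 43.8 CPM in the old and 2.17 to 19.3 CPM in the young samples. Mfsd2a, a lipid transporter that holds back caveolar transcytosis in brain endothelium, had 0, 66 and 3 counts in the old and 0, 1 and 10 counts in the young samples and was not tested.

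Genes of membrane scaffolds that do not build caveolae and of clathrin-coated pits were read alongside. Of the 6 flotillin and stomatin genes, 5 were positive and 0 passed, with a median of 0.96. Flot1, a raft scaffold, had 62.1, 43.4 and 42.1 CPM in the old samples, against 16.1, 33.6 and 29.03 CPM in the young samples with every old sample higher (log2 fold change 0.91, 95% interval −0.32 to 2.13, edgeR adjusted p = 0.894). Flot2 ran from 32.7 to 51.4 CPM in the old and from 4.03 to 41.3 CPM in the young samples, Stom from 9.43 to 138 CPM in the old and from 23.2 to 58.5 CPM in the young samples.

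Of the 25 clathrin genes, 12 were positive and 13 negative and 0 passed, with a median of −0.02. Cltc, the clathrin heavy chain, had 540 ± 71.8 CPM in old and 503 ± 95.6 CPM in young cells (SD, n = 3 each). Gak, which strips the coat from vesicles, had 69.0, 103 and 85.4 CPM in the old samples, against 113, 157 and 193 CPM in the young samples, with every old sample lower (log2 fold change −0.85, edgeR adjusted p = 0.888). Dnajc6, the neuronal relative of Gak, had 52, 39 and 281 counts in the old samples, against 0, 9 and 2 counts in the young samples. Bin1, which curves membranes, had 20.02 to 30.004 CPM in the old and 22.7 to 119 CPM in the young samples, and Ap2a1, a subunit of the adaptor that gathers cargo, had 20.2 to 63.6 CPM in the old and 40.02 to 123 CPM in the young samples. The groups overlapped, through young sample 1 for Bin1 and old sample 2 for Ap2a1.

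**Figure D5:**
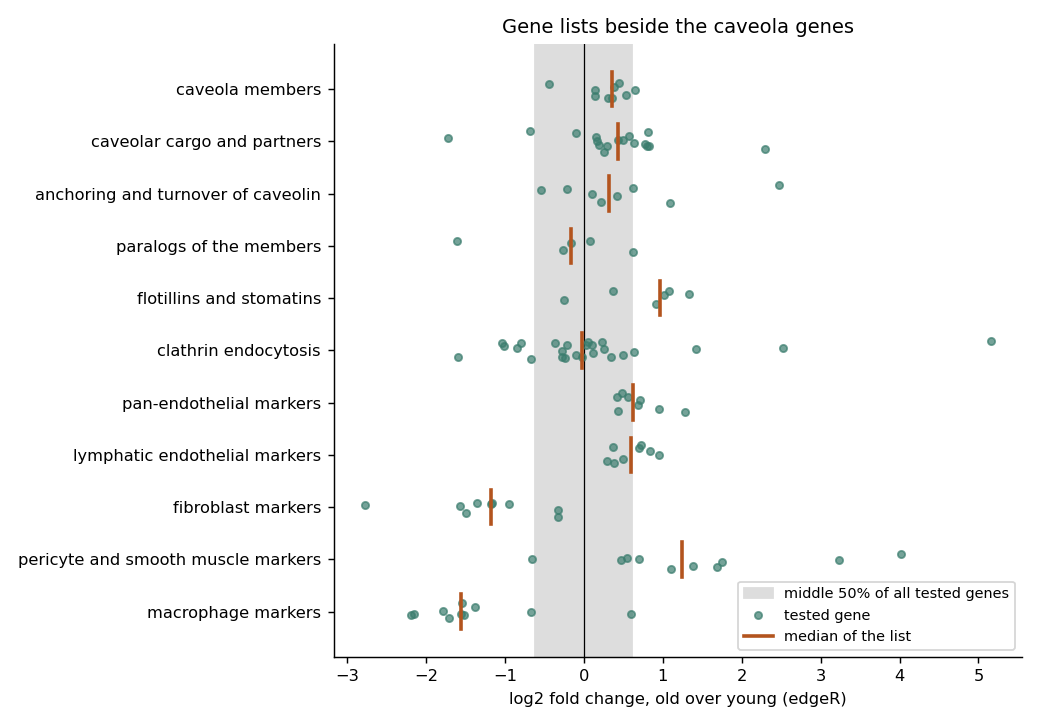
Log2 fold change of old over young for every tested gene of 11 lists, with an orange line at each list's median and a grey band from −0.62 to 0.60 for the middle 50% of all tested genes. The caveola genes have a median of 0.36, between clathrin endocytosis at −0.02 and the pan-endothelial markers at 0.62, and fibroblast markers lie at −1.18.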

How the data were processed

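The authors' deposited table holds whole-number estimated counts per gene for 6 libraries. FastQC, Salmon and mm10 are named per the submitters' processing notes; no source used here gives their versions, their roles, the annotation or the strandedness. Symbols (22738 of 22964 genes), positions and exon lengths came from GENCODE M21 on GRCm38, the assembly of mm10.

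The age effect was fitted in R 4.3.3 by edgeR 4.0.16 (genes kept by filterByExpr with minimum count 10 and total 15, TMM factors, robust quasi-likelihood F-test, two-sided). P-values were adjusted by Benjamini-Hochberg over 15394 genes at 0.05. Intervals of 95% come from the quasi-likelihood F and its degrees of freedom. Log2 CPM used a prior count of 2. Ratios were tested by exact permutation. DESeq2 1.42.0, limma-voom (limma 3.58.1), other scalings and filters, a replicate block and the omission of each library were alternatives. Fits were also run on simulated data with known fold changes. The only condition set there was on the edgeR fold changes, not on the genes called.

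Library pairs differed by a chi-square per degree of freedom of at least 89.6, above sampling noise. Each library was counted once, and this value cannot show whether libraries came from separate animals. The 9 genes and the lists were chosen with earlier results of these data known. Named genes were the 9, their paralogs, sort checks, the 4 members with the smallest p of each further list or others of at least 300 CPM, and the 5 genes most like Cav1; Cdh5, Mfsd2a and Tmed1 were named outside that rule. A gene that the rule names is not reported here, and Mrc1 was named after its values were seen. The lists cover caveolar partners, anchoring and turnover, flotillins and stomatins, clathrin and cell type markers. The 6 skeletal muscle markers analysed here summed to at most 5.39 CPM in old and 20.3 CPM in young samples.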

Additional observations from a re-analysis of the deposited data

How the results depend on the processing

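Of the 9 caveola genes, 7 kept their direction under all 14 alternatives to the edgeR fit and 0 were called by any of them. Ehd4 ran from −0.061 to 0.38 and Pacsin2 from −0.16 to 0.33 (log2 fold change, old over young) when 1 library was left out, both negative without old sample 3 and without young sample 1. Ehd2 had an unadjusted p of 0.0030 to 0.031 in edgeR, DESeq2 and limma-voom under every alternative, with log2 fold changes of 0.51 to 0.68, and its smallest adjusted p was 0.282. Cav1 ran from 0.08 to 0.58, Cav2 from 0.26 to 0.91, Cavin1 from 0.30 to 0.69, Cavin2 from 0.12 to 0.57, Cavin3 from 0.10 to 0.66 and Dnm2 from −0.71 to −0.25. DESeq2 called 130 genes, limma-voom 3 and the edgeR fit without old sample 1 called 1, where the other fits called 0 and leave-one-out counts thus ran from 0 to 1. At an unadjusted p under 0.05 there were 856 genes in the edgeR fit, 1374 in DESeq2, 1543 without a filter and 696 to 1396 with a library left out, the most without old sample 2. Library size alone as the scaling moved the median of all genes from 0.02 to −0.12, the split at an unadjusted p under 0.05 from 441 higher and 415 lower to 285 higher and 546 lower, and the medians to 0.20 for the caveola genes, 0.46 for lymphatic and 0.47 for pan-endothelial markers. Dnm3 turned negative there, at −0.077, and in limma-voom, at −0.014, and Ptprc turned positive in limma-voom, at 1.10.

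With a library left out, Ehd3 ran from −0.73 to 0.42, Pacsin3 from −1.54 to 0.34, Dnm3 from −0.66 to 0.72, Pdpn from −0.053 to 0.63 and Ptprc from −0.64 to 0.50. List medians ran from −0.73 to 0.25 for paralogs, 0.50 to 0.71 for lymphatic, 0.48 to 0.67 for pan-endothelial and 0.55 to 1.41 for pericyte and smooth muscle markers, the lowest of these without old sample 1. The difference in log2 ratio ran from −0.28 to 0.86 for Cav2 to Cav1, −0.26 to 0.33 for Cavin1 to Cav1 and −0.17 to 0.14 for Cavin2 to Cavin1. The longest coding transcript as length, chosen after seeing the data, gave Dnm2 34.3 in old and 46.6 CPM per kb in young cells. The cause of these shifts was not tested.

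Deviations from the group means correlated at 0.0792, 0.0533 and −0.0119 between samples with the same number in both groups. Between samples with different numbers they correlated at −0.0945 to 0.0593. With 3 samples a group, these values cannot decide whether equal numbers pair samples. With the replicate number as a block, 712 genes had an unadjusted p under 0.05 and 0 were called, the Ehd2 log2 fold change was 0.65, Dnm3 was −0.076, Ptprc 0.82 and the median of the paralogs −0.63. The number of samples, 3 a group, limits the precision of all intervals given.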
